A study of Mus musculus with 21 samples.

Results

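The genes described were the 6 mouse histone methyltransferases that write methyl groups on lysine 9 of histone H3 (H3K9), namely Ehmt1, Ehmt2, Setdb1, Setdb2, Suv39h1 and Suv39h2. They were taken by symbol from an RNA-seq table of 37620 genes and each matched 1 row. All 6 were among the 20795 genes that averaged 0.1 FPKM or more, where FPKM counts sequenced fragments scaled to the length of the transcript and to all mapped fragments of the library. The RNA came from germ cells enriched from testes of 12-dpp (days post-partum) males of the inbred strain C57BL/6J (B6) by digestion with collagenase and trypsin, and the labels name the cells spermatocytes. The 12 libraries carried 4 sample numbers (186wt, 343wt, 444wt and 456wt), and each number had 3 libraries. All 4 shared strain, age and preparation, none carried a transgene or a treatment, and the labels do not say how many animals a number stands for. The study's methods describe 4 replicates of germ cells, so the 4 numbers were taken as the replicates and the 3 libraries of a number as repeats of it, which bears on all tests over libraries. The study mapped the 2 marks these enzymes write, H3K9me2 and H3K9me3, to ask which binding sites of the meiotic protein PRDM9 are used. Of its 21 samples, the 12 RNA-seq libraries were used, and the ChIP-seq, Affinity-seq and input samples were not analysed here.
The estimated depth was between 12.9 and 17.95 M (mega) fragments per library. The label was checked against marker lists. All 13 meiotic prophase genes were expressed, with summed levels between 329.9 and 555 FPKM. The 10 genes of undifferentiated and differentiating spermatogonia summed to between 352 and 537 FPKM, so the label spermatocytes does not cover all germ cell RNA. The 8 round spermatid genes summed to between 3.16 and 5.59 FPKM, from Spaca1 with 2.09 FPKM and Tnp1 with 0.960 to the protamine gene Prm2, listed at 0 in all 4 numbers. Markers of somatic testis cells were present as well. The 8 measured Sertoli cell genes summed to between 2503 and 4498 FPKM, so the preparation also held RNA of the somatic cells that surround the germ cells. In such bulk samples, fewer cells of a type and less RNA per cell cannot be told apart.

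Methylation of H3K9 marks silent chromatin. Ehmt1 (GLP) and Ehmt2 (G9a) act as a pair that writes the mono- and dimethyl marks over large domains, and male germ cells without G9a fail in meiotic prophase. Setdb1 adds the trimethyl mark at transposable elements and at genes when brought there by KRAB zinc-finger proteins through Trim28. Setdb2 is its less studied relative. Suv39h1 and Suv39h2 trimethylate the heterochromatin around centromeres. Suv39h2 was first described as a testis-enriched enzyme, and male mice without both Suv39h enzymes are sterile.

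Each member had a promoter in the RefSeq table for the GRCm38.p6 build (250 bases before to 50 bases after the transcript start), with a second start for Ehmt2 and Suv39h1. The promoters of Ehmt1, Suv39h1 and Suv39h2 are shown because they held the same 10 letters, GCGCAGGCGC, which match an NRF1-like pattern (GCGC, any 2 bases, GCGC). In each sequence below, capitals mark matches on either strand to that pattern, to the GC box GGGCGG or to the CCAAT box. The Ehmt1 window lies at chr2:24919560-24919859, the first Suv39h1 window at chrX:8074711-8075010 and the Suv39h2 window at chr2:3474937-3475236, all 3 on the minus strand.
Ehmt1: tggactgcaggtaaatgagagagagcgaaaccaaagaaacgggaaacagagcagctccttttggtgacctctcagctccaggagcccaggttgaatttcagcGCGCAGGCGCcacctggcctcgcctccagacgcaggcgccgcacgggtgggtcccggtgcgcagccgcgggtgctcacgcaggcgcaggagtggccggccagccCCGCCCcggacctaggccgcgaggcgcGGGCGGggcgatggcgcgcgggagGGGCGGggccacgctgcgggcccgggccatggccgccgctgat
Suv39h1, first start: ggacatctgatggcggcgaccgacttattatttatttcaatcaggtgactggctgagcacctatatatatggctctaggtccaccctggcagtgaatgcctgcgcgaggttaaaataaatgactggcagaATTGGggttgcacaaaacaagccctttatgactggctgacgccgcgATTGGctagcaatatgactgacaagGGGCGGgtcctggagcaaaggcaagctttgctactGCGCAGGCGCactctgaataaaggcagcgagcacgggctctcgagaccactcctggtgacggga
Suv39h2: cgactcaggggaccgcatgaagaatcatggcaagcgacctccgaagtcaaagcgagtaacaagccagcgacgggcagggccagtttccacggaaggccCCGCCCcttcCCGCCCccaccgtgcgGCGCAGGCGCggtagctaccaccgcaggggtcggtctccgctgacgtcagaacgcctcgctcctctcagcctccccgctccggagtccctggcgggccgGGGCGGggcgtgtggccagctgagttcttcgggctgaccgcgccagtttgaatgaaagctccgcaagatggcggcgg
The shared letters began 148 bases before the start of Ehmt1, 14 bases before that of Suv39h1 and 126 bases before that of Suv39h2. The NRF1-like pattern was present in 6.27% of 32544 distinct promoters of this length, and the exact letters, on either strand, in 2.14%. The exact letters were singled out after the matches had been seen. A GC box was present in a promoter of 5 of the 6 members, all but Setdb2, and in 35.9% of all promoters. A CCAAT box was present in Setdb1, Setdb2 and Suv39h1 and in 37.4% of all promoters. The E-box CACGTG was found in Ehmt2 alone among the members and in 7.17% of all promoters. These are matches of letters and not measured binding. The 8 promoters held between 15 and 40 CpG dinucleotides against a median of 7 over all promoters. The lowest count, in Setdb1 and at the first Suv39h1 start, was above that of 65.1% of all promoters. The highest, at the second Ehmt2 start, was above that of 96.1%.

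The transcripts of the 6 enzymes differed widely in level. Ehmt2 was the highest with 155 ± 17.4 FPKM (SD, n = 4). It was above 99.0% of all genes in the table and 98.2% of those averaging 0.1 FPKM or more. Setdb1 followed with 52.0 ± 6.23 FPKM. Ehmt1 had 36.8 ± 2.42 FPKM and Suv39h1 36.4 ± 6.66 FPKM. Suv39h2 had 20.5 ± 3.29 FPKM and Setdb2 17.1 ± 2.28 FPKM. Setdb2 was still above 83.8% of all genes in the table and 70.7% of those averaging 0.1 FPKM or more. FPKM is scaled to transcript length, so these levels can be set side by side. Other differences between genes, such as overlap with genes on the other strand, can remain in them. Ehmt1 and Suv39h1 could not be ordered. Ehmt1 was the higher of the pair in 3 of 4 numbers and in 7 of 12 libraries, and the two-sided exact sign-flip permutation test over the 4 numbers gave p = 0.75. For every other pair of neighbors in this order, the higher gene was higher in 4 of 4 numbers and in 12 of 12 libraries. The same exact permutation test gave p = 0.125 for each of them, the smallest p that 4 numbers allow.
Together the 6 transcripts summed to 317 ± 37.1 FPKM. Ehmt1 and Ehmt2 held 60.4% ± 0.959 of that sum, Setdb1 and Setdb2 21.8% ± 0.473, and Suv39h1 and Suv39h2 17.9% ± 0.757 (SD, n = 4). Ehmt2 alone held between 48.0% and 49.7% in the 4 numbers. The makeup of the sum thus varied less between numbers than the sum itself, which was 291 FPKM in 186wt, 287 in 343wt, 367 in 444wt and 326 in 456wt.

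**Figure D1:**
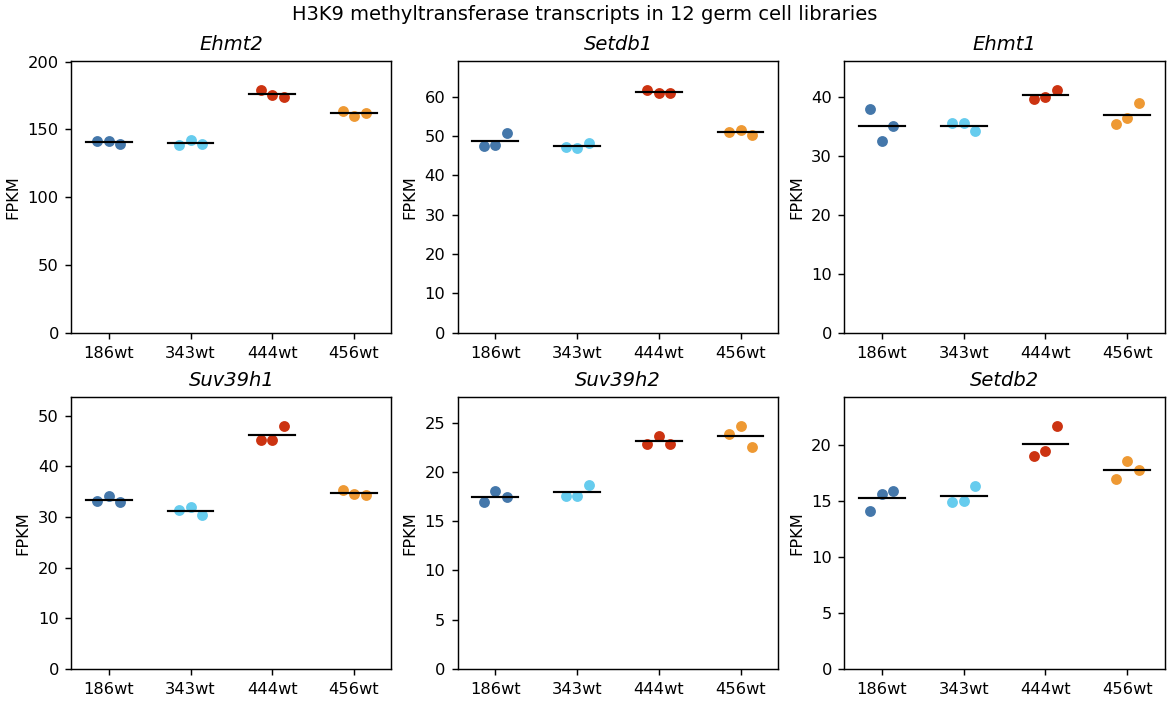
Each panel plots the FPKM of 1 H3K9 methyltransferase (vertical axis, from 0, scaled to the gene) in the 12 libraries, grouped by sample number, with a point per library and a bar at the mean of 3. The 3 libraries of 444wt lie above the other 9 for 5 genes, and the mean of Suv39h2 is 23.1 FPKM in 444wt beside 23.7 in 456wt.

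The G9a/GLP pair was measured at 2 different levels. Ehmt2 lies on chr17:35035414-35050997 (plus strand, NCBI build 37) and Ehmt1 on chr2:24646289-24775129 (minus strand). Neither shares exonic bases with another annotated gene. The Ehmt2 libraries read 142, 142 and 139 FPKM in 186wt, 138, 142 and 139 in 343wt, 179, 175 and 174 in 444wt, and 163, 160.1 and 162 in 456wt. No library of 444wt overlapped with any other, the 3 of 456wt stood next, and 186wt and 343wt overlapped. On the log2(FPKM + 0.1) scale used for all differences, 444wt exceeded 343wt by 0.33 ± 0.017 (SE, limma adjusted p = 3.56e-08) and 456wt exceeded 343wt by 0.21 ± 0.017 (limma adjusted p = 1.92e-06). Between 186wt and 343wt no difference was found, with a 95% interval of -0.046 to 0.031.
Ehmt1 varied least of the 6. Its libraries read 37.9, 32.5 and 35.1 FPKM in 186wt, 35.6, 35.5 and 34.1 in 343wt, 39.6, 40.04 and 41.1 in 444wt, and 35.3, 36.4 and 39.0 in 456wt. The lowest of the 444wt libraries read 39.6 FPKM, and the highest of the other 9 read 39.0. The difference between 444wt and 343wt was 0.20 ± 0.052 (SE, limma adjusted p = 0.00849). It was 0.096 and no longer passed (adjusted p = 0.168) after each library was rescaled by its median ratio to the others.

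Setdb1 lies on chr3:95127447-95161124 (minus strand, NCBI build 37) and Setdb2 on chr14:60020846-60059721 (minus strand). The Setdb1 libraries read 47.6, 47.7 and 50.7 FPKM in 186wt, 47.1, 47.0 and 48.1 in 343wt, 61.6, 60.9 and 60.9 in 444wt, and 50.9, 51.5 and 50.3 in 456wt. The 444wt libraries stood apart above the other 9, and 186wt and 456wt overlapped. The rise from 343wt to 444wt was 0.37 ± 0.026 on the log2 scale (SE, limma adjusted p = 4.55e-07). From 444wt to 456wt the transcript fell by 0.26 (limma adjusted p = 2.26e-05).
Setdb2 was the lowest member and the noisiest by counting. Its libraries read 14.1, 15.7 and 16.0 FPKM in 186wt, 15.0, 15.0 and 16.4 in 343wt, 19.1, 19.5 and 21.7 in 444wt, and 17.0, 18.6 and 17.8 in 456wt. The order of the means was the same as for Ehmt2 except that 186wt was lowest. The difference between 444wt and 343wt was 0.38 ± 0.064 (SE, limma adjusted p = 0.000473). That between 456wt and 444wt, -0.17, did not pass (limma adjusted p = 0.0659). Its 95% interval, which is not adjusted for the number of genes, was -0.32 to -0.033.

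Suv39h1 is X-linked, at chrX:7638297-7651886 (minus strand, NCBI build 37), and Suv39h2 lies on chr2:3373087-3392303 (minus strand). Suv39h1 had the widest spread of the 6. Its libraries read 33.1, 34.2 and 33.1 FPKM in 186wt, 31.4, 32.0 and 30.4 in 343wt, 45.2, 45.3 and 47.9 in 444wt, and 35.4, 34.5 and 34.4 in 456wt. The groups overlapped nowhere, and 444wt stood far above the rest. The mean was 1.48 times as high in 444wt as in 343wt, a log2 difference of 0.56 ± 0.031 (SE, limma adjusted p = 5.48e-08). From 444wt to 456wt it fell by 0.41 (limma adjusted p = 2.66e-06).
Suv39h2 followed another order. Its libraries read 16.9, 18.0 and 17.5 FPKM in 186wt, 17.6, 17.6 and 18.7 in 343wt, 22.9, 23.7 and 22.8 in 444wt, and 23.8, 24.6 and 22.5 in 456wt. The numbers fell into a low pair and a high pair that did not overlap, and within each pair the libraries overlapped. The difference between 444wt and 343wt was 0.36 ± 0.042 (SE, limma adjusted p = 2.34e-05), and that between 456wt and 343wt 0.40 ± 0.042 (limma adjusted p = 1.44e-05). Between 444wt and 456wt the difference was 0.033 (adjusted p = 0.620), with a 95% interval of -0.060 to 0.13.
Exons of Suv39h1 and Suv39h2 overlap genes on the other strand, and the strand setting of the authors' quantification is not given in the sources used here. Of the exonic bases of Suv39h1, 11.3% overlap Gm14820, which had at most 0.133 FPKM in any number. Of those of Suv39h2, 9.98% overlap Dclre1c or Gm13184. Dclre1c, a DNA repair nuclease, was at 14.9, 13.5, 11.6 and 9.90 FPKM in 186wt, 343wt, 444wt and 456wt, the reverse of the order of Suv39h2. Of the 100-base stretches in Suv39h2 coding transcripts, 1.84% also occur in transcripts of Dclre1c, and those of the other 5 members occur in no other coding gene. Of the exonic bases of Setdb1, 0.934% overlap Lass2.

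All 6 members differed between the sample numbers (limma F-test, adjusted p between 3.97e-08 for Ehmt2 and 0.0185 for Ehmt1). So did 58.2% of the 20795 genes tested, so a call was the common outcome. It was more common still among genes averaging at least 1 FPKM, as all 6 members did. When only those were tested, 11136 of 14348 were called. Highest and lowest numbers differed by 0.20 to 0.56 on the log2 scale, beside a median of 0.55 over all genes tested. Suv39h1 exceeded 51.2% of the tested genes in this difference and Ehmt1 11.0%. The calls for Ehmt2, Setdb1, Setdb2, Suv39h1 and Suv39h2 held under every alternative that was run, and that for Ehmt1 was lost under 5 of 15, among them the fit without 444wt (0.072, adjusted p = 0.475). Without 444wt the difference between the extreme numbers also shrank from 0.33 to 0.21 for Ehmt2, from 0.37 to 0.10 for Setdb1, from 0.40 to 0.22 for Setdb2 and from 0.56 to 0.15 for Suv39h1. That of Suv39h2 stayed at 0.43.
The direction was shared. For 5 of 6 members all 3 libraries of 444wt lay above the other 9, which was so for 11.5% of all genes tested, and the mean was highest in 444wt for the same 5, against 36.3% of all genes. These shares, and those that follow, cover all genes averaging 0.1 FPKM or more. They were not computed for genes at the level of the members alone. In 444wt against 343wt all 6 passed the test as higher, as did 30.4% of all genes, while 17.5% were lower. In 444wt against 186wt all 6 were higher, beside 26.1% of all genes, and 5 (all but Ehmt1) beside 19.3% after each library was rescaled by its median ratio to the others. In 456wt against 186wt 3 were higher (Ehmt2, Setdb2 and Suv39h2, beside 25.9% of all genes), and 2 (Ehmt2 and Suv39h2) beside 20.5% after that rescaling. In 456wt against 343wt 5 were higher (all but Ehmt1, beside 27.6% of all genes), and the same 2 beside 19.7% after rescaling. In 444wt 3 were higher than in 456wt (Ehmt2, Setdb1 and Suv39h1, beside 13.1% of all genes), and none was lower. Between 186wt and 343wt the test called Suv39h1 alone, as higher in 186wt (0.098 on the log2 scale, limma adjusted p = 0.0470, beside 10.5% of all genes). That call was lost after rescaling (limma adjusted p = 0.0990). The means of 444wt and 456wt were both above those of 186wt and 343wt in 6 of 6 members and in 37.1% of all genes.
The median of the table was shifted as well. The median log2 difference of all genes tested was 0.14 between 444wt and 343wt and 0.12 between 456wt and 343wt. Relative to it, the members were higher in 444wt than in 343wt by 0.056 for Ehmt1, 0.19 for Ehmt2, 0.22 for Suv39h2, 0.23 for Setdb1, 0.24 for Setdb2 and 0.42 for Suv39h1. After rescaling by the median ratio, the tested genes split into 21.9% higher and 22.5% lower in 444wt, and 5 of 6 members still passed as higher. On that scale 4 of 6 members had all 3 libraries of 444wt above the other 9 (Ehmt2, Setdb1, Setdb2 and Suv39h1), against 8.36% of all genes. The means of 444wt and 456wt were then both highest in 3 members (Ehmt2, Setdb2 and Suv39h2), against 28.6% of all genes.

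**Figure D2:**
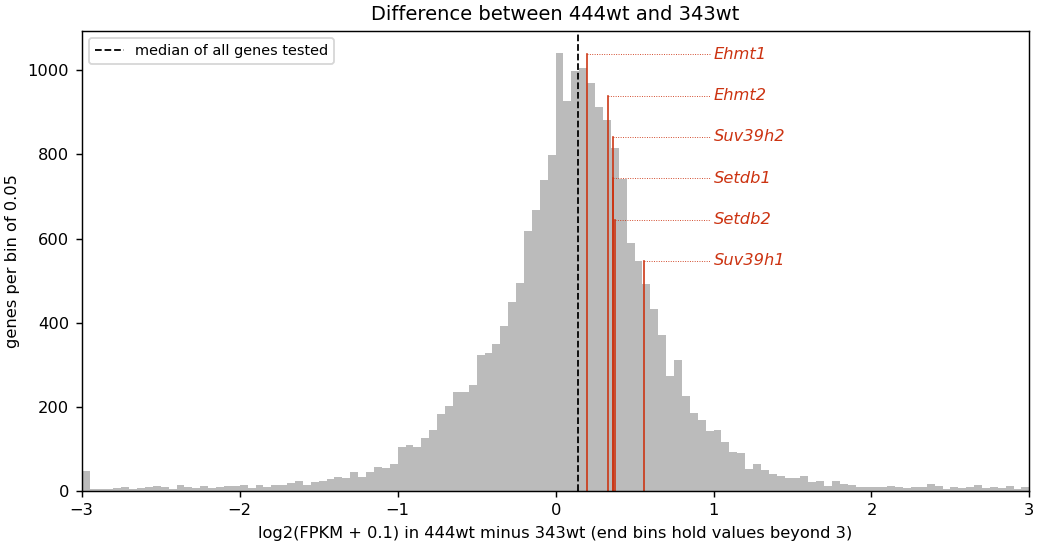
The histogram counts the 20795 genes tested by their difference in log2(FPKM + 0.1) between 444wt and 343wt (horizontal axis), with the dashed line at the median of 0.14 and a red line at each of the 6 methyltransferases, whose height only carries the label. All 6 lie to the right of the median, from 0.20 for Ehmt1 to 0.56 for Suv39h1, within the bulk of the distribution.

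Cell type markers moved with the same numbers. The 13 meiotic prophase genes, such as Sycp3 and Dmc1, summed to 437, 329.9, 555 and 391 FPKM in 186wt, 343wt, 444wt and 456wt, and all 13 were higher in 444wt than in 343wt by the test. The 10 spermatogonial genes, such as Kit and Stra8, summed to 352, 386, 537 and 457 FPKM, with 7 higher and 1 lower in 444wt. The 8 Sertoli cell genes summed to 4335, 4498, 2503 and 2675 FPKM, and all 8 were lower in 444wt.
Of the other somatic lists, Leydig cell genes (6 of 6) and macrophage genes (6 of 6) were lower in 444wt than in 343wt, and summed to between 16.1 and 110 FPKM and between 8.21 and 33.8 FPKM. Endothelial genes (5 of 6) were lower, with sums between 14.5 and 37.9 FPKM. Peritubular myoid genes (4 of 5) were higher in 444wt and highest in 456wt, with sums between 253 and 1112 FPKM. Of 8 round spermatid genes, 2 were higher, and the list summed to between 3.16 and 5.59 FPKM. From lowest to highest, the sum of the methyltransferases ran 343wt, 186wt, 456wt and 444wt, which is the order of the Sertoli sums from highest to lowest. It was not the order of the meiotic or the spermatogonial sums. The Sertoli sums rest largely on Clu, with 2289, 2380, 1251 and 1456 FPKM in 186wt, 343wt, 444wt and 456wt. The medians of the Sertoli list, 248.2, 261.9, 152.9 and 152.6 FPKM, put 444wt above 456wt and so give another order. Among the methyltransferases, the places of 343wt and 186wt rest on sums of 287 and 291 FPKM. After rescaling by the median ratio, no member was called between these 2 numbers. With the 2 exchanged, the order would be that of the spermatogonial sums and no longer that of the Sertoli sums. After rescaling by the median ratio, 12 of 13 meiotic genes were higher in 444wt (all but Rec8), the spermatogonial, Sertoli, Leydig, macrophage, endothelial and myoid counts were as given, and no round spermatid gene passed. The part of cell makeup in the differences between numbers was not tested.

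**Figure D3:**
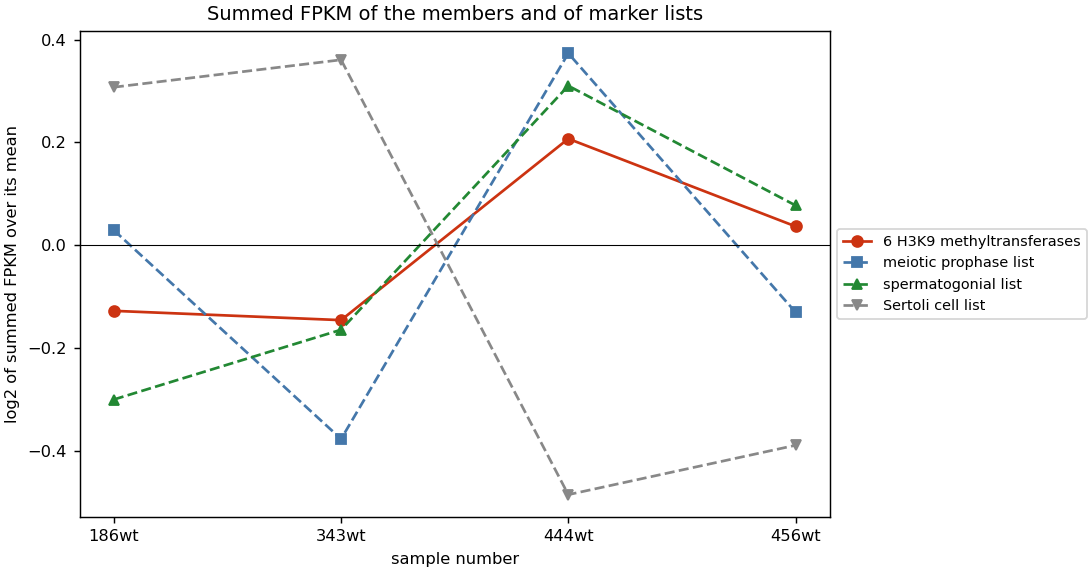
The log2 of a list's summed FPKM over its mean of the 4 sample numbers (vertical axis) is plotted by sample number (horizontal axis, with no order among numbers, so lines only join the points of a list). The 6 methyltransferases are lowest in 343wt (287 FPKM) and highest in 444wt (367 FPKM), the meiotic and spermatogonial lists are also highest in 444wt, and the Sertoli list is lowest there.

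Ratios within a library do not depend on its scaling. The ratio of Suv39h1 to Suv39h2 was between 1.89 and 1.96 in the libraries of 186wt, 1.62 and 1.82 in 343wt, 1.91 and 2.10 in 444wt, and 1.40 and 1.52 in 456wt. The libraries of 456wt lay below the other 9, so the balance of the pericentromeric pair was shifted toward Suv39h2 there. The extreme numbers differed by 0.44 on the log2 scale (exact permutation test of the 12 libraries among the numbers, p = 0.00013, adjusted p = 0.00039 over 3 ratios). It was 0.20 without 456wt (exact permutation test, adjusted p = 0.0214). Without the third libraries, the difference was 0.43 and did not pass (exact permutation test, adjusted p = 0.0571).
The ratio of Ehmt1 to Ehmt2 was 0.250, 0.251, 0.229 and 0.228 in 186wt, 343wt, 444wt and 456wt. Its difference of 0.14 between the extremes did not pass the exact permutation test (adjusted p = 0.155). The ratio of Setdb1 to Setdb2 was 3.19, 3.07, 3.04 and 2.87. Its difference of 0.16 did not pass either (exact permutation test, adjusted p = 0.175). In both of these ratios some numbers overlapped and others did not, and no number stood apart from all the rest. These tests compare 4 samples by the spread between the repeat libraries of each and not between animals.

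**Figure D4:**
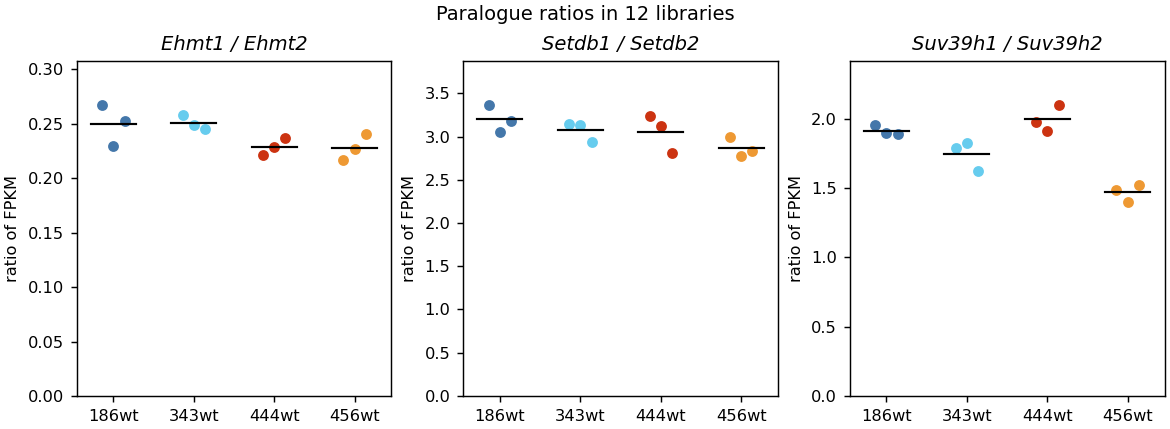
Each panel plots the ratio of FPKM of 2 paralogous methyltransferases (vertical axis, from 0) in each of the 12 libraries by sample number, with a bar at the mean of 3 libraries. The Suv39h1 to Suv39h2 ratio is between 1.40 and 1.52 in 456wt and at least 1.62 elsewhere. In the other panels some numbers overlap and others do not, and no number stands apart from all the rest.

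Genes that work with or against these enzymes were read from 4 lists. Beside the counts below, 58.2% of all genes tested differed between numbers. In 444wt against 343wt 30.4% of all genes were higher and 17.5% lower, or 21.9% and 22.5% after rescaling by the median ratio. Of 15 partners and readers of the marks, 14 differed between numbers, and in 444wt against 343wt 10 were higher, 3 were lower and 2 did not pass. After rescaling by the median ratio, 5 were higher and 5 lower. Trim28, the corepressor that recruits Setdb1, was the highest of the list with 200.6 ± 18.9 FPKM and was at 180.4 FPKM in 343wt and 224 in 444wt. Cbx3 (HP1 gamma), a reader of H3K9 methylation, had 110.1 ± 12.3 FPKM. The lowest were Fam208a, a subunit of the HUSH silencing complex listed under the symbol D14Abb1e, with 10.5 ± 0.669 FPKM, and the chromodomain gene Cdyl2 with 10.7 ± 0.701 FPKM. The largest differences in the list were those of Atf7ip2 (0.60 on the log2 scale, 9.87 FPKM in 343wt and 15.1 in 444wt) and of the HUSH subunit Mphosph8 (0.40, 43.3 and 57.1 FPKM).
The 11 H3K9 demethylases, which remove the mark, all differed between numbers, but not in one direction. In 444wt against 343wt 4 were higher (Kdm1a, Kdm3a, Jmjd1c and Kdm4d), 6 were lower (Kdm4a, Kdm4b, Kdm4c, Phf8, Phf2 and Jhdm1d) and Kdm3b did not pass. The median difference of this list was -0.20, beside 0.37 for the 6 methyltransferases and 0.14 for all genes tested. Kdm1a (LSD1) was the highest with 75.2 ± 4.90 FPKM, followed by Phf8 with 47.9 ± 7.55 FPKM. Kdm4d had 1.46 ± 0.405 FPKM and Phf2 9.0 ± 0.844 FPKM. Jhdm1d had the largest difference of the list after Kdm4d, from 46.4 FPKM in 343wt to 27.0 in 456wt. After rescaling by the median ratio, 3 were higher and 7 lower.
Of 4 PRDM genes linked to H3K9 methylation, Prdm2 had 29.6 ± 0.985 FPKM, Prdm16 6.85 ± 1.77, Mecom 0.525 ± 0.228 and Prdm8 0.0733 ± 0.0467, below the minimum for testing. The 3 tested genes differed between numbers, and Prdm2 and Prdm16 were higher in 444wt than in 343wt (Prdm16 alone after rescaling by the median ratio).
Among 18 methyltransferases for other histone lysines 17 differed between numbers, with 10 higher and 2 lower in 444wt than in 343wt and 6 that did not pass (8 higher and 4 lower after rescaling by the median ratio). Their median level was 26.3 FPKM against 36.6 FPKM for the H3K9 enzymes. Setd8, the H4K20 monomethyltransferase, was the highest with 67.8 ± 11.6 FPKM and was lower in 444wt (57.7 FPKM) than in 343wt (81.4 FPKM). Whsc1 (NSD2), an H3K36 methyltransferase, had 59.4 ± 9.07 FPKM and was higher in 444wt (68.8 FPKM) than in 343wt (55.0 FPKM). Setd7 and Setd1b were the lowest with 6.41 ± 0.557 and 6.80 ± 0.955 FPKM. Ehmt2 was higher than each of the 18, and Setdb2 was higher than 5 of them.

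**Figure D5:**
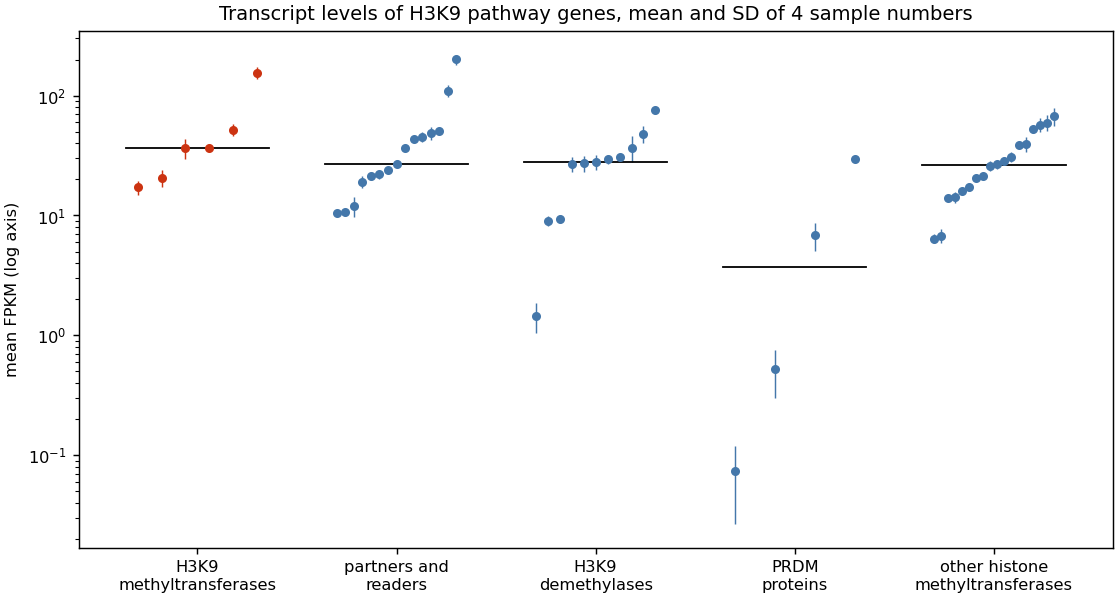
Points are the mean FPKM of each gene (log axis) with the SD over the 4 sample numbers as error bars, sorted within 5 lists, and horizontal lines are list medians. The 6 H3K9 methyltransferases (red) run from 17.1 to 155 FPKM, within the range of their partners and readers, and 2 PRDM genes lie below 1 FPKM.

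The genes whose profiles over the 12 libraries were closest to each member were found among 14347 genes that averaged 1 FPKM or more. Closeness was the root mean square difference of log2 values after each gene's mean was subtracted. The nearest to Ehmt2 were Upf1 and Noc3l, at 0.023 and 0.024, beside a median of 0.21 for all genes. For Setdb1 the 3 nearest were Smg1, Cherp and Hnrpdl. Upf1 and Smg1 act in nonsense-mediated mRNA decay. For Suv39h1 they were Alms1, Caprin2 and 5730590G19Rik, for Suv39h2 Tpst1, Plcb3 and Wasf3, for Setdb2 Wdr75, Chml and Ttf2, and for Ehmt1 AI314180, Zfp644 and Hbs1l. Zfp644 was also on the list of partners, as a zinc-finger protein that binds the G9a/GLP pair. Among the members themselves, Ehmt2 and Setdb1 were closest in this difference (0.066, with 1.25% of genes nearer to Setdb1 and 3.39% nearer to Ehmt2). Suv39h1 and Suv39h2 were farthest apart (0.18, with 21.6% of genes nearer to Suv39h1 and 28.6% nearer to Suv39h2). The share of nearer genes gave other extremes. It was smallest for Setdb1 seen from Suv39h1 (0.599%) and largest for Suv39h2 seen from Ehmt1 (40.5%). These values are a description of 12 libraries, 3 from each number, and not of 12 independent samples.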

How the data were processed

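RNA was sequenced from 12-dpp B6 germ cells in 12 libraries. Per the paper's methods, Bowtie 0.12.9 placed the paired reads of 100 bp on NCBI build 37 transcripts, reads with at least 2 mismatches were dropped, and RSEM 1.2.8 gave the deposited FPKM, which have 2 decimals. A strand setting is not given in the sources used here. FPKM are relative to all RNA of a library, so a change in abundant somatic transcripts shifts every other gene.
The 3 libraries of a sample number were averaged and levels are mean ± SD over 4 numbers. Genes averaging 0.1 FPKM or more were tested on log2(FPKM + 0.1) with limma 3.58.1 in R 4.3.3 (trend, F-test and pairwise contrasts, Benjamini-Hochberg adjustment over 20795 genes, threshold 0.05). The p-values measure the spread between the 3 libraries of a number, which may be technical repeats of 1 sample. Ratios were compared by exact permutation of the libraries (15400 arrangements). Fold changes of low genes are understated on this scale. Python 3.11.15, numpy 2.4.6, pandas 2.3.3 and matplotlib 3.10.9 were used for the rest.
The deposited FPKM come without counts, so depth was estimated from the steps that single fragments make in the FPKM of 8010 genes. At that depth the least covered member, Setdb2, had at least 204 fragments per kilobase in each library. Positions are those of GENCODE M1 (NCBI build 37), which held 37205 of 37620 identifiers. The labels do not say whether library numbers 1 to 3 pair the samples. Deviations of same-numbered libraries correlated between -0.065 and 0.13, which cannot decide it, and the main fit had no block.
The members and lists were chosen with earlier results of these data known. The genes named are the members, in each list the 2 highest, the 2 lowest and the 2 with the largest difference between numbers, and the 3 nearest profiles of each member, of which 1 is not reported here. The members of short counts, the example markers and the overlapping genes were named after their values were seen. The scripts were tested on simulated data. Alternatives were other pseudocounts, minimum levels and scalings, no trend, library number as a block, and leaving out libraries or numbers. The counts of each list, of members in the other pairs of numbers and of libraries standing apart after rescaling were added after the data were seen.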

Additional observations from a re-analysis of the deposited data

Results flagged for a closer look

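Of 35 values compared over the 4 sample numbers, 3 had 1 number far from the others, where chance gives about 1.8. The median FPKM of the H3K9 demethylase list was 26.16 in 456wt and between 30.6 and 31.5 in the other numbers. The median of the endothelial list was 5.42 FPKM in 456wt and between 1.74 and 2.32 elsewhere. The median of the round spermatid list was 0.335 FPKM in 444wt and between 0.0817 and 0.115 elsewhere, at a level where few fragments are counted. None of the 6 methyltransferases had such a number.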

How the results depend on the processing

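Over 16 alternatives, 280 of 288 recomputed values were counted as kept and 8 lost a call. Kept meant the same side of the threshold for tests, within 1.5 times for counts, and within 1 SD for levels. A fall from 6 to 5 methyltransferases thus counted as kept. Direction was compared only for 444wt against 343wt. The lowest number could change, as for Ehmt2 from 343wt to 186wt under the median-ratio scaling. The number of genes that differed between sample numbers was 12107 and between 9516 and 12146 under the alternatives. The number of H3K9 methyltransferases among them was 6 and fell to 5, without Ehmt1, when no minimum level was set (adjusted p = 0.0665), after rescaling by the median ratio (0.211), without replicate 2 (0.0992), without replicate 3 (0.168) and without 444wt (0.475). The Ehmt1 difference between 444wt and 343wt lost its call under the median-ratio scaling (0.096, adjusted p = 0.168) and without replicate 3 (0.16, adjusted p = 0.105). The cause was not tested. The difference in the ratio of Suv39h1 to Suv39h2 was between 0.43 and 0.46 when 1 library number was left out, and without replicate 3 it did not pass (exact permutation test, adjusted p = 0.0571), where 105 arrangements remain. Without 456wt it was 0.20. With the library number as a replicate block, 11774 genes and 6 methyltransferases differed, and the Suv39h ratio kept its call (0.44, exact permutation test, adjusted p = 0.00521), so the block changed no call of the methyltransferases or of the ratios. In 444wt against 343wt, the split of all calls was 30.4% of genes higher and 17.5% lower, and 21.9% and 22.5% after the median-ratio scaling. The levels of the 6 transcripts moved by less than 1 SD in all 60 recomputed values. Depth limits Setdb2 most, whose counting error over 1 kilobase was 7.0% in the shallowest library.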
